A study of Homo sapiens with 18 samples.

Results

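The genes described here are 46 human genes of the interferon response and of antigen presentation on MHC class I, followed in 18 RNA-seq libraries of prostate cancer cell lines in which EMD, the gene of emerin, was knocked down. Emerin is a protein of the inner nuclear membrane. The members were given as a list of symbols, not chosen by a threshold: they were matched by symbol in the DU145 table and by Ensembl identifier in the tables of C4-2B and 22Rv1. All 46 are among the 37256 genes of the DU145 table and the 22360 genes of the C4-2B table, and 43 are among the 25716 genes of the 22Rv1 table, and XAF1, SAMD9 and SAMD9L were not analysed in that line. The 6 groups have 3 libraries each: EMD knockdown and control cells of C4-2B, of 22Rv1 and of DU145. C4-2B is a castration-resistant derivative of LNCaP cells, 22Rv1 was derived from a relapsed xenograft and DU145 from a brain metastasis. Knockdown cells received siRNA against EMD and controls a scrambled siRNA through a lipid reagent, per the labels' protocols, and the mix was taken off after 24 hours. The names of the DU145 knockdown libraries carry the prefix shEMD, which usually marks a hairpin vector, so the reagent used in that line is uncertain. The labels give neither the time of harvest nor whether the triplicates were separate cultures, so the p-values measure the spread between these libraries, which may be technical.

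Cells sense viral or misplaced nucleic acids through proteins such as MDA5, RIG-I and cGAS, and answer by secreting interferons. Interferons bind their receptors on the same and neighbouring cells, JAK kinases phosphorylate STAT proteins, and a complex that holds STAT2 and IRF9 enters the nucleus and binds the interferon-stimulated response element in the promoters of antiviral genes. Interferon gamma works in part through IRF1, and raises the peptide-loading machinery that lets T cells see the cell's peptides on MHC class I molecules. Tumour cells often show a standing low activity of this programme without added interferon. The labels name no added interferon.

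The libraries held 14722733 to 25112148 reads (C4-2B), 15602874 to 30788078 reads (22Rv1) and 21024352 to 43311727 reads (DU145), and levels below are in counts per 1000000 reads (CPM). EMD, the target, stood at 8.49, 10.0 and 6.38 CPM in the C4-2B EMD knockdown libraries, against 67.2, 75.1 and 67.3 CPM in the C4-2B controls. In 22Rv1 EMD was at 21.2, 19.6 and 17.5 CPM in EMD knockdown and 65.4, 69.7 and 60.9 CPM in control cells, and in DU145 at 4.61, 4.77 and 5.01 CPM in EMD knockdown and 45.1, 47.7 and 40.7 CPM in control cells. The knockdown was visible in each line without overlap, at log2 fold changes of -3.07, -1.73 and -3.21 (edgeR, adjusted p = 3.37e-14, 4.29e-14 and 1.67e-22). Line, table and batch label coincide and cannot be told apart, whereas knockdown and control cells of a line share all of them. The share of mitochondrial reads differed between the arms, at 4.27% to 4.89% in knockdown and 5.91% to 6.38% in control C4-2B, 1.45% to 1.54% in knockdown and 0.964% to 1.20% in control 22Rv1, and 7.11% to 7.35% in knockdown and 8.94% to 9.12% in control DU145. Its part in the results was not tested. All 4 epithelial markers had reads in every line. Among 9 leukocyte markers, the sum in DU145 was 29.1 to 32.1 CPM in knockdown and 94.6 to 95.6 CPM in control cells, nearly all of it from the lysosomal gene CD68, at 29.4, 30.8 and 27.7 CPM in EMD knockdown and 94.1, 94.6 and 93.5 CPM in control cells. Of the 9, 2 were tested in DU145, CD68 falling and 1 other rising, at log2 fold changes of -1.68 and 1.58. The 5 of these markers analysed in C4-2B summed to 3.34 to 4.04 CPM in knockdown and 4.97 to 6.95 CPM in control cells. In C4-2B 2 were tested, at log2 fold changes of -2.86 and -0.30, of which 1 fell and 1 did not pass. The 5 analysed in 22Rv1 summed to 1.53 to 1.94 CPM in knockdown and 2.87 to 5.56 CPM in control cells. There 2 were tested and 2 fell, at log2 fold changes of -7.49 and -0.985. PTPRC and CD3E, which define leukocytes and T cells, reached at most 0.267 and 0.0890 CPM in any DU145 library. The 4 epithelial markers summed to 1006 to 1102 CPM in knockdown and 2042 to 2204 CPM in control DU145, to 1322 to 1351 CPM in knockdown and 1686 to 1767 CPM in control 22Rv1, and to 1639 to 1674 CPM in knockdown and 1488 to 1544 CPM in control C4-2B. In 22Rv1, fibroblast and endothelial markers summed to 5.88 to 7.77 CPM in knockdown and 23.1 to 27.2 CPM in control cells. In DU145 their sum lay the other way, at 7.955 to 9.75 CPM in knockdown and 4.25 to 6.91 CPM in control cells. The C4-2B arms overlapped, at 46.1 to 51.5 CPM in knockdown and 49.7 to 53.8 CPM in control cells. The part of these marker shifts in the results was not tested.

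The number of members called differed between the 3 lines, as did the share of all genes called. In DU145, 26 of 40 tested members fell and 5 rose, with 9 not past the threshold. Over all 19377 genes tested in DU145, 47.6% passed, 23.6% falling and 24.1% rising. In 22Rv1, 18 of 32 tested members fell, 5 rose and 9 did not pass, against 67.8% of all 16656 genes passing, 34.3% falling and 33.5% rising. In C4-2B, 7 of 40 tested members fell, 8 rose and 25 did not pass, where 41.7% of all 15801 genes passed, 22.3% falling and 19.4% rising. The median log2 fold change of the tested members was -0.52 in DU145, -0.51 in 22Rv1 and -0.08 in C4-2B, beside 0.01, 0.00 and 0.01 for all genes tested in those lines. Members falling at least 2-fold numbered 9 in DU145, 10 in 22Rv1 and 3 in C4-2B, where 4.52%, 14.7% and 3.72% of all genes did so. Those rising at least 2-fold numbered 2 in DU145, 1 in 22Rv1 and 1 in C4-2B, against 3.70%, 3.66% and 2.90% of all genes. By the totals of the libraries instead of TMM factors, 3871 genes rose and 2922 fell in C4-2B, against 3068 and 3516. Members that rose in C4-2B numbered 5 without knockdown library 1, and in 22Rv1 3 without knockdown library 3 or without control 1. Genes count as having fallen or risen here when edgeR's quasi-likelihood test gave an adjusted p under 0.05 over all genes of the line. In bulk RNA, fewer cells with a transcript and less of it per cell cannot be told apart.

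**Figure D1:**
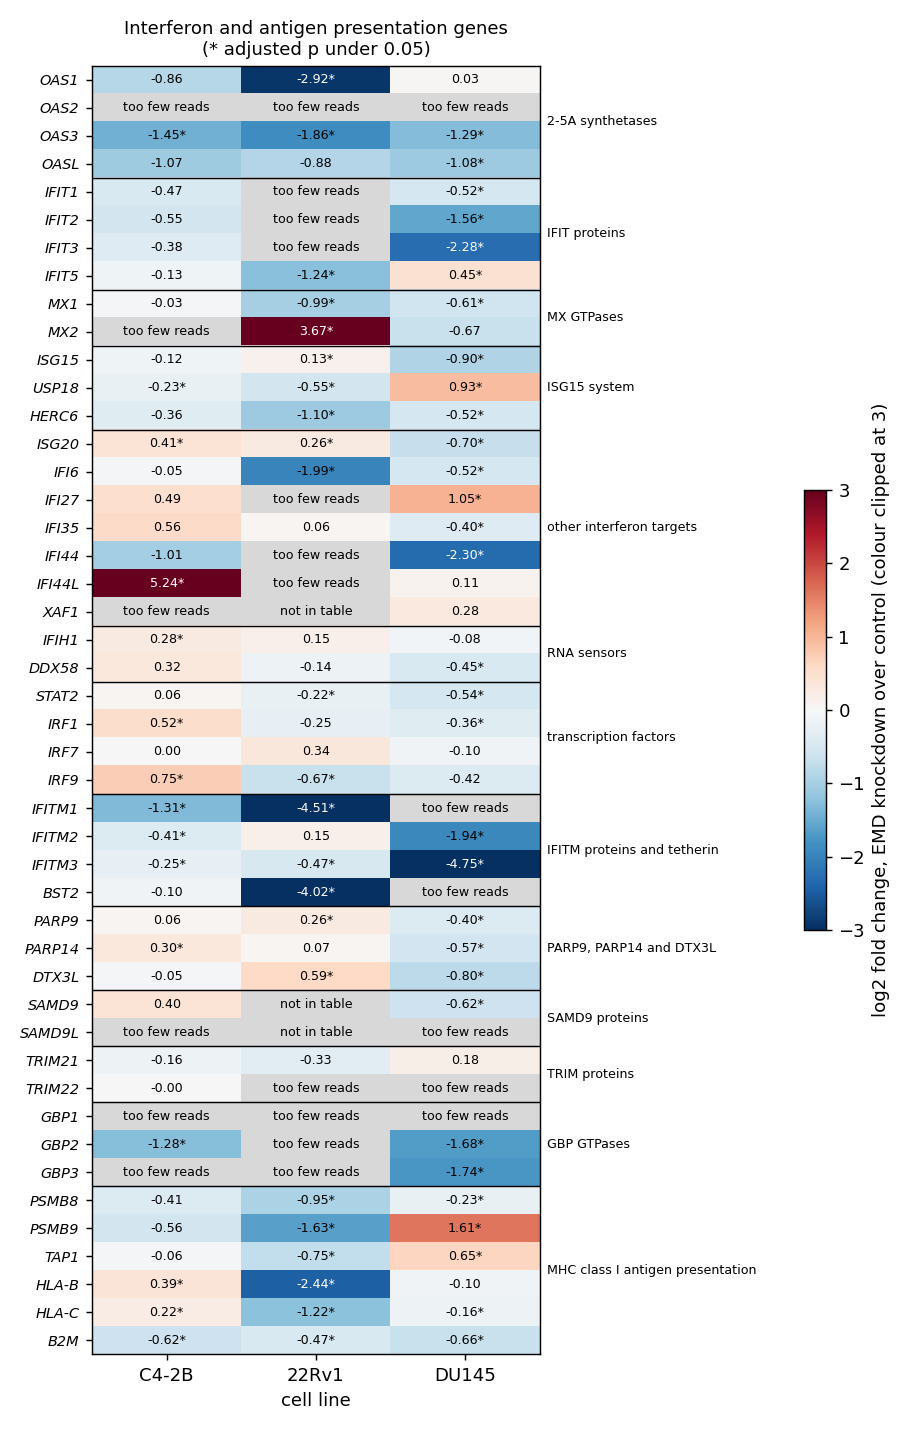
Log2 fold change of EMD knockdown over control for the 46 genes (down the page, grouped by role) in 3 cell lines (across), in blue where lower and red where higher in knockdown cells, with grey where a gene had too few reads or no entry in the table. Stars mark an adjusted p under 0.05 in edgeR; OAS3, IFITM3 and B2M are starred and blue in all 3 lines.

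Of the 46 members, 43 were tested in at least 1 line and 39 of these passed in at least 1, where 69.0% of all 22315 genes tested in any line did. OAS2, SAMD9L and GBP1 had too few reads to be tested in any line. Of the 29 members tested in all 3 lines, OAS3, IFITM3 and B2M fell in all 3 (10.3%) and 0 rose in all 3, against 2.32% and 2.12% of 13078 genes. In 13 of the 40 members tested in at least 2 lines (32.5%) a rise in 1 line stood against a fall in another, where 32.6% of 16441 genes showed such a pair, so nothing is read from that count. It also holds calls that alternative settings lost, among them those of IRF9 and USP18 in C4-2B and of ISG15 and ISG20 in 22Rv1. Members with all 3 knockdown libraries below all 3 controls numbered 26 in DU145, 19 in 22Rv1 and 14 in C4-2B, where 26.6%, 35.9% and 26.0% of all tested genes lay so. Those with all knockdown libraries above the controls numbered 5, 6 and 9 in the same lines, against 28.2%, 35.1% and 24.5% of all genes.

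In 22Rv1 the fold changes of all genes shifted with their level, low genes lying below 0. The median log2 fold change over all genes was -0.44 for genes of 0.5 to 2 CPM and -0.33 for those of 2 to 10 CPM, but 0.13 for those of 30 to 100 CPM and 0.15 above 100 CPM. The members' medians in these ranges were -1.02 over 6 members, -0.67 over 11, -0.07 over 6 and -0.47 over 3. With cyclic loess scaling in limma, which removes such a shift, 15 of the 32 members fell and 6 rose. Of all 16656 genes, 5634 fell and 5622 rose under that scaling. In DU145 the median of all genes stayed within 0.03 of 0 in every range, and the members' median was -0.65 over 10 members of 0.5 to 2 CPM, -0.52 over 16 of 2 to 10 CPM and -0.49 over 10 of 10 to 30 CPM. It was 0.27 over 2 members of 30 to 100 CPM and -0.41 over 2 above 100 CPM. In C4-2B the medians of all genes fell with level from 0.5 CPM upward, the reverse of 22Rv1. They were 0.19 for 0.5 to 2 CPM, 0.13 for 2 to 10 CPM and 0.01 for 10 to 30 CPM. For 30 to 100 CPM and above 100 CPM they were -0.03 each. The C4-2B members' medians in these ranges were -0.71 over 8 members, -0.03 over 11, 0.03 over 10, -0.06 over 7 and -0.10 over 3.

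**Figure D2:**
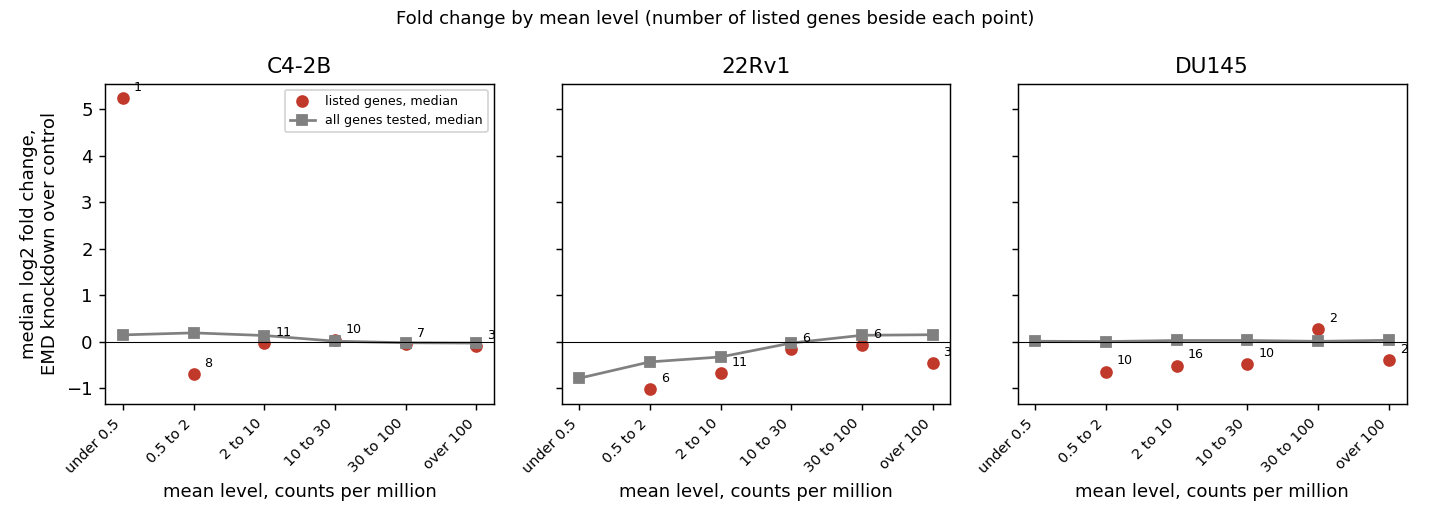
Median log2 fold change of EMD knockdown over control (vertical axis) by mean level in CPM (horizontal axis) for all tested genes (grey squares) and the listed genes (red points, with their number), in 3 cell lines. In 22Rv1 the grey line climbs to 0.15 above 100 CPM from -0.44 at 0.5 to 2 CPM, while in DU145 it stays flat and the red points lie below it up to 30 CPM; the lone C4-2B point at 5.24 is IFI44L.

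Promoters are shown for 7 members whose changes recur below, because letters matching the element that the complex of STAT2 and IRF9 binds stand in them. The sequences are from RefSeq (GRCh38.p14), 300 bases from 250 before to 50 after the gene's start, 5′ to 3′ on the gene's strand. Capitals mark matches on either strand to the core of the interferon-stimulated response element, GAAANNGAAA, and to the gamma-activated site, TTCNNNGAA. Matches that overlap run together.
OAS3, chr12:112938224-112938523, plus strand: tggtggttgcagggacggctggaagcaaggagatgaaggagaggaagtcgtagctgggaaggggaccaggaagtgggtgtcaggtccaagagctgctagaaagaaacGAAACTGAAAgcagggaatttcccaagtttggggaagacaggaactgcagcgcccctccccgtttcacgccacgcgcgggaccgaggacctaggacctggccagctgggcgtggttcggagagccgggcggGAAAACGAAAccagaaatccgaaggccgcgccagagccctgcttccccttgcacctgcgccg
IFIT3, chr10:89327747-89328046, plus strand: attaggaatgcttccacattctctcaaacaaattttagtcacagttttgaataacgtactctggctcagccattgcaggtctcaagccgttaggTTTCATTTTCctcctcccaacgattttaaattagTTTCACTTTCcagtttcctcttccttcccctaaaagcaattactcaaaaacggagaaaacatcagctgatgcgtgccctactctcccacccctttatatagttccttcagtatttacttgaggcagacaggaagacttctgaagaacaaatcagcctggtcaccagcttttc
BST2, chr19:17405581-17405880, minus strand: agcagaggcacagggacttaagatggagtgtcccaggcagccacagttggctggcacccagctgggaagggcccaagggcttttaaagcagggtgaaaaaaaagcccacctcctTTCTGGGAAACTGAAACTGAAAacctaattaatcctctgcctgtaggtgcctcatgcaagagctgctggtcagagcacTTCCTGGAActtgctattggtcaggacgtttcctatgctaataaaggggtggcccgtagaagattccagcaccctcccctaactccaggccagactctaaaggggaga
IFITM1, chr11:313790-314089, plus strand: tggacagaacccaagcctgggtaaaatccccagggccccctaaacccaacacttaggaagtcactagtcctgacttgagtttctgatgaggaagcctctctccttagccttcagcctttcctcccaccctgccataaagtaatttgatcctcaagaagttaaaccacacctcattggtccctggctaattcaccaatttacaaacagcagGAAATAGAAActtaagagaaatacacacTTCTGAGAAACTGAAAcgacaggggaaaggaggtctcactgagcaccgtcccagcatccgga
IFITM3, chr11:320811-321110, minus strand: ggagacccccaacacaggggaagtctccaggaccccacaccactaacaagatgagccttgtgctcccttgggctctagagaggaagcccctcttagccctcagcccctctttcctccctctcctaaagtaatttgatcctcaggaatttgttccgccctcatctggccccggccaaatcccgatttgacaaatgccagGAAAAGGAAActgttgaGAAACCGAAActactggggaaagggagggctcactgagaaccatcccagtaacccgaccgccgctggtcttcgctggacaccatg
TAP1, chr6:32853655-32853954, minus strand: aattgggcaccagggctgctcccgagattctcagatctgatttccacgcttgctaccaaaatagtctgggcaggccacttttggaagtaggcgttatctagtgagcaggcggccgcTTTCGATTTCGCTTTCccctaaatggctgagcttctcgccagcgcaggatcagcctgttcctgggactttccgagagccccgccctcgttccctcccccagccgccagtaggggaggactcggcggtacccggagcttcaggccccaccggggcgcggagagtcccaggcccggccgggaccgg
DTX3L, chr3:122564088-122564387, plus strand: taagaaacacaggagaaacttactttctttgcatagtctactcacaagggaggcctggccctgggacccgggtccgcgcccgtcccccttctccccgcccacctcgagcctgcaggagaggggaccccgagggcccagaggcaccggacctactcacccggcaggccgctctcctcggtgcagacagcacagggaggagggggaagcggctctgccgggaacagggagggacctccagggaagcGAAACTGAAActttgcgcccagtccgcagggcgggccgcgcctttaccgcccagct

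Of the 46 members, 37 have an entry in that promoter table (DDX58 under its newer symbol RIGI), and 23 of these 37 (62.2%) hold GAAANNGAAA, as do 3.57% of all 35116 promoters of that length. TTCNNNGAA stood in 9 of the 37 (24.3%) and in 7.66% of all promoters. IFI6, IFIT5 and IFIH1 have 3 matches of the first motif each, and BST2 holds 2 of each motif. A match describes the letters and is no evidence of binding. In DU145, 14 of 20 tested members with GAAANNGAAA fell and 3 rose, and of 13 tested members without it 8 fell and 1 rose. In 22Rv1, 9 of 15 with it fell and 3 rose, and 8 of 12 without it fell and 1 rose. In C4-2B, 4 of 21 with it fell and 4 rose, and of 12 without it 4 rose and 8 did not pass. Over all genes tested, 23.6% fell and 24.1% rose in DU145, 34.3% and 33.5% in 22Rv1, and 22.3% and 19.4% in C4-2B. The 2 classes were not tested against each other, and nothing is read from these counts about the motif.

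The ligands analysed had few reads. Of 9 interferon genes, none was analysed in C4-2B and 2 were in 22Rv1, where IFNB1 and IFNK each had 0 reads in knockdown and 2 in control cells. All 9 were looked up in DU145, where IFNE alone had enough reads to be tested. IFNE, an epithelial type I interferon, stood at 0.632, 0.456 and 0.420 CPM in the DU145 EMD knockdown libraries, against 0.906, 1.12 and 1.25 CPM in the DU145 controls. IFNE lay lower in each DU145 knockdown library than in any control, with a log2 fold change of -1.12 ± 0.34 (SE, adjusted p = 0.00687).

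The receptors of type I interferon moved in both directions. IFNAR2, a chain of the type I receptor, stood at 19.0, 18.6 and 19.2 CPM in the DU145 EMD knockdown libraries, against 50.2, 46.4 and 49.9 CPM in the DU145 controls. For IFNAR2 the DU145 arms did not overlap, at a log2 fold change of -1.37 ± 0.06 (SE, adjusted p = 5.22e-17), and in 22Rv1 it was -0.48 ± 0.08 (SE, adjusted p = 1.06e-05). IFNAR1, the other chain, stood at 53.8, 61.3 and 56.8 CPM in the DU145 EMD knockdown libraries, against 98.0, 99.1 and 103 CPM in the DU145 controls, and the log2 fold change was -0.80 ± 0.05 (SE, adjusted p = 4.87e-13). In 22Rv1 the IFNAR1 arms were apart the other way, at 88.8, 79.8 and 88.6 CPM in EMD knockdown and 56.5, 55.8 and 56.1 CPM in control and a log2 fold change of 0.61 ± 0.05 (SE, adjusted p = 2.15e-09). Of 11 genes of receptors and their signalling, 3 rose and 3 fell in DU145, 3 rose and 5 fell in 22Rv1, and 0 of 10 tested passed edgeR in C4-2B, where 0 had an unadjusted p under 0.05, 0 passed DESeq2 and 0 passed limma with cyclic loess. Their median log2 fold changes were 0.05, -0.20 and 0.01 in those lines. In DU145 IL10RB, a chain shared by the interferon lambda and interleukin-10 receptors, rose with a log2 fold change of 1.32 (adjusted p = 7.70e-10), and in 22Rv1 IFNLR1, its lambda-specific partner, fell by 0.63 on the log2 scale (adjusted p = 4.42e-05), as did IFNGR2, a chain of the interferon gamma receptor (-0.49, adjusted p = 7.72e-07).

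Among the transcription factors, no member changed 2-fold. STAT2, a partner of IRF9 in the complex, stood at 19.8, 18.8 and 20.7 CPM in the DU145 EMD knockdown libraries, against 28.4, 28.6 and 29.0 CPM in the DU145 controls. The DU145 arms of STAT2 were apart, at a log2 fold change of -0.54 ± 0.06 (SE, adjusted p = 2.54e-08); in 22Rv1 the value was -0.22 ± 0.05 (SE, adjusted p = 0.00131) and in C4-2B it did not pass (0.06, adjusted p = 0.572). IRF9, the DNA-binding part of the complex, rose in C4-2B (0.75, adjusted p = 0.0371), where the arms overlapped and 6 of 13 alternative settings lost the call, and fell in 22Rv1 (-0.67, adjusted p = 0.00229). The 22Rv1 call of IRF9 was lost with cyclic loess scaling in limma (adjusted p = 0.0563). GENCODE 29 places a second gene over 48.4% of the exon bases of IRF9 on the same strand, so its reads are uncertain. IRF1, a factor induced by interferon gamma, rose in C4-2B (0.52, adjusted p = 0.00289) and fell in DU145 (-0.36, adjusted p = 0.00033). IRF7, which amplifies interferon production, passed in no line, with log2 fold changes of 0.00, 0.34 and -0.10 in C4-2B, 22Rv1 and DU145.

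**Figure D3:**
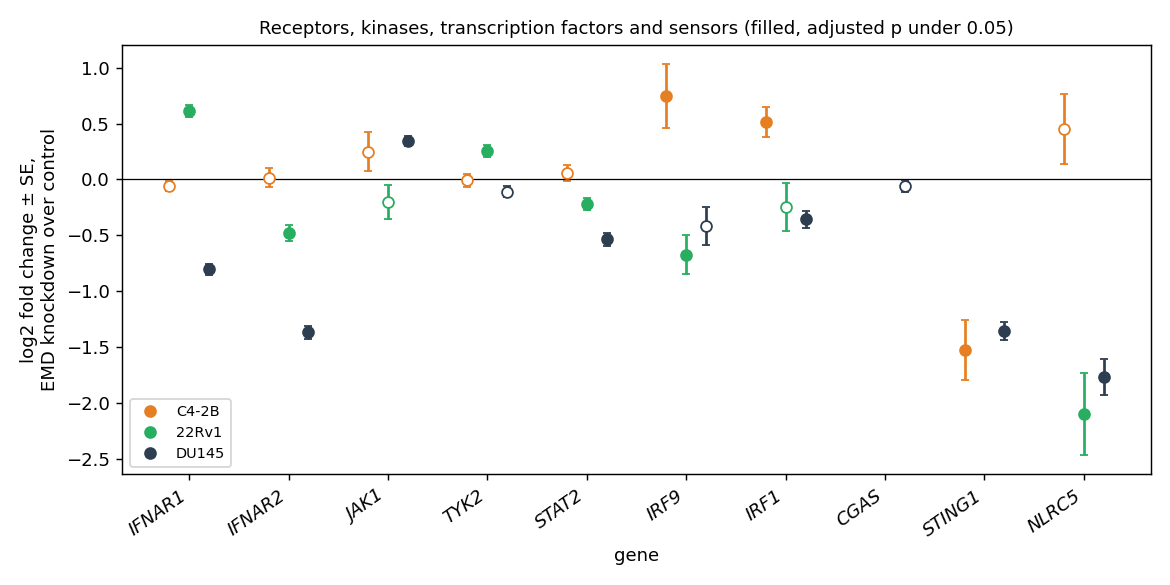
Log2 fold change ± SE of EMD knockdown over control (vertical axis) for receptor, kinase, transcription factor and sensor genes (horizontal axis) in C4-2B (orange), 22Rv1 (green) and DU145 (dark), filled where the adjusted p was under 0.05. IFNAR2 lies at -1.37 in DU145, STING1 at -1.53 in C4-2B and -1.36 in DU145, and NLRC5 at -2.10 in 22Rv1 and -1.76 in DU145.

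Of the RNA sensors among the members, 1 passed in DU145 and the other in C4-2B. DDX58, the gene of RIG-I, stood at 10.1, 11.3 and 10.1 CPM in the DU145 EMD knockdown libraries, against 13.9, 15.0 and 13.9 CPM in the DU145 controls. In DU145 the DDX58 arms did not overlap and the log2 fold change was -0.45 ± 0.08 (SE, adjusted p = 2.38e-05), while in C4-2B and 22Rv1 it did not pass (0.32 and -0.14). IFIH1, the gene of MDA5, rose in C4-2B (0.28, adjusted p = 0.0466), a call lost in 9 of 13 alternative settings, and did not pass in 22Rv1 or DU145. On the side of DNA, STING1, the adaptor that cGAS signals through, stood at 7.25, 7.25 and 8.31 CPM in the DU145 EMD knockdown libraries, against 19.3, 19.5 and 19.8 CPM in the DU145 controls. STING1 lay lower in every DU145 knockdown library, with a log2 fold change of -1.36 ± 0.08 (SE, adjusted p = 3.19e-14). In C4-2B it stood at 1.75, 1.17 and 2.31 CPM in EMD knockdown and 5.69, 5.24 and 4.21 CPM in control cells, again without overlap, at a log2 fold change of -1.53 ± 0.27 (SE, adjusted p = 5.11e-05); 22Rv1 was not analysed here for this gene. CGAS, which makes the second messenger for STING1, was tested in DU145 alone and did not pass (-0.06, adjusted p = 0.415). Of 18 genes of nucleic acid sensing outside the members, 17 were tested in DU145, where 9 fell and 3 rose at a median log2 fold change of -0.55. In 22Rv1, 3 of 12 fell and 5 rose, led by SAMHD1, an enzyme that strips the triphosphate from deoxynucleotides (0.81, adjusted p = 1.91e-11). SAMHD1 fell in DU145 (-0.91, adjusted p = 4.14e-12). In C4-2B, 2 of 14 fell and 2 rose, among them TLR3 (-0.73, adjusted p = 0.0317), which senses RNA in endosomes, and TRIM25 (0.25, adjusted p = 6.10e-05), a ligase that helps RIG-I. TRIM25 also rose in 22Rv1 (0.595, adjusted p = 1.49e-09) and DU145 (0.275, adjusted p = 1.26e-05). DHX58, a relative of RIG-I, passed in 22Rv1 (-0.65, adjusted p = 0.00748) and DU145 (-1.29, adjusted p = 0.0205), and the kinase IKBKE in 22Rv1 (0.60, adjusted p = 0.000143). IKBKE fell in DU145 (-0.70, adjusted p = 3.23e-08). IFI16, a nuclear DNA sensor that also counts among the further targets below, fell in DU145 by 2.34 on the log2 scale (adjusted p = 1.93e-06).

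OAS3, a synthetase of the messenger that activates RNase L, fell in all 3 lines. It stood at 8.23, 9.39 and 10.0 CPM in the C4-2B EMD knockdown libraries, against 23.2, 27.1 and 25.4 CPM in the C4-2B controls. In 22Rv1 it had 9.61, 11.1 and 12.1 CPM in EMD knockdown and 40.1, 39.6 and 38.3 CPM in control cells. In DU145 it had 14.8, 14.6 and 15.3 CPM in EMD knockdown and 34.9, 38.0 and 36.5 CPM in control cells. No knockdown library of any line reached a control of its line, and the fall was 2.74-fold in C4-2B, 3.63-fold in 22Rv1 and 2.45-fold in DU145. The log2 fold changes of OAS3 were -1.45 ± 0.11 (SE, adjusted p = 6.26e-11), -1.86 ± 0.08 (SE, adjusted p = 1.25e-13) and -1.30 ± 0.06 (SE, adjusted p = 5.57e-16) in that order. OAS3 lies at chr12:112938352-112973249 on the plus strand (GRCh38, GENCODE 29), beside its paralogs OAS1 and OAS2. OAS1 fell in 22Rv1, where it had 5, 1 and 2 reads in the EMD knockdown libraries and 27, 14 and 43 reads in the controls. The 22Rv1 arms of OAS1 did not overlap, at a log2 fold change of -2.92 ± 0.53 (SE, adjusted p = 6.67e-05); it did not pass in C4-2B (-0.86) or DU145 (0.03). OASL, a relative that binds RIG-I, fell in DU145 with 0.714, 0.701 and 1.09 CPM in EMD knockdown and 1.81, 1.86 and 1.66 CPM in control cells. OASL values in the DU145 knockdown libraries were all lower, at a log2 fold change of -1.08 ± 0.27 (SE, adjusted p = 0.00149), and in C4-2B (-1.07, adjusted p = 0.0858) and 22Rv1 (-0.88, adjusted p = 0.0528) it missed the threshold.

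**Figure D4:**
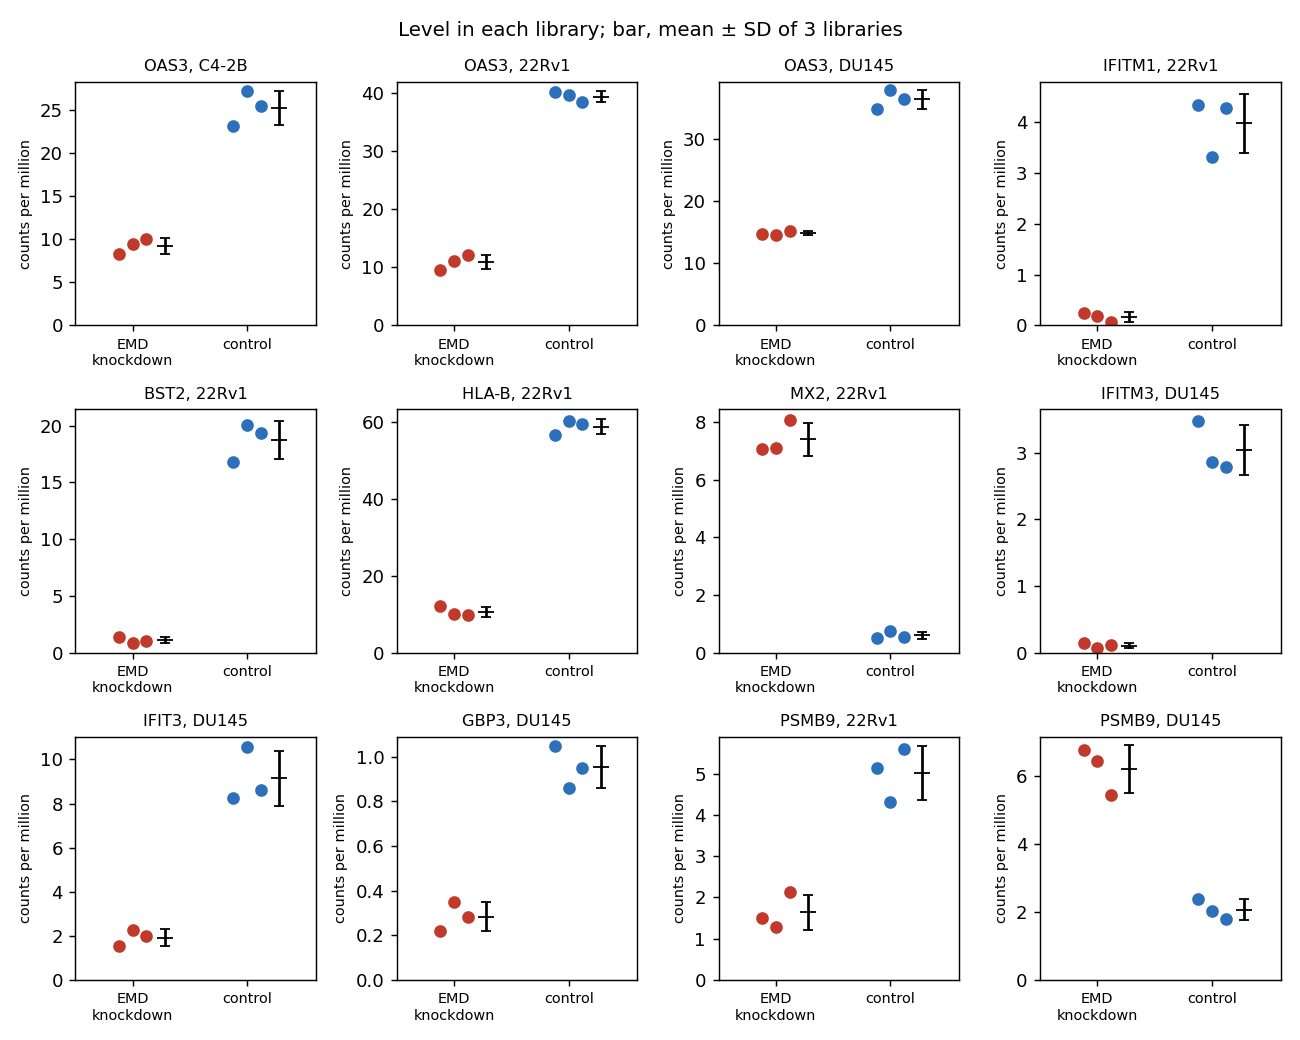
Level in CPM (vertical axis) in each EMD knockdown (red, left) and control (blue, right) library for selected genes in the named line, with the mean ± SD of 3 libraries as a bar. Red and blue points do not overlap in any panel; red lies above blue for MX2 in 22Rv1 and PSMB9 in DU145 and below it in the other panels.

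The IFIT proteins, which bind foreign RNA ends and block translation, fell in DU145 save for 1. IFIT3 stood at 1.51, 2.24 and 1.99 CPM in the DU145 EMD knockdown libraries, against 8.25, 10.6 and 8.63 CPM in the DU145 controls. Its DU145 arms were far apart, at a 4.86-fold lower level and a log2 fold change of -2.28 ± 0.14 (SE, adjusted p = 8.87e-13). IFIT2 stood at 1.68, 1.86 and 1.46 CPM in the DU145 EMD knockdown libraries, against 6.20, 4.49 and 4.21 CPM in the DU145 controls, without overlap, and its log2 fold change was -1.56 ± 0.17 (SE, adjusted p = 1.76e-08). IFIT1 fell too (-0.52, adjusted p = 0.000798). IFIT5 went the other way, at 14.0, 13.1 and 12.7 CPM in the DU145 EMD knockdown libraries, against 10.8, 9.61 and 9.11 CPM in the DU145 controls. Every DU145 knockdown library lay higher for IFIT5, with a log2 fold change of 0.45 ± 0.08 (SE, adjusted p = 4.86e-05). In 22Rv1, IFIT1, IFIT2 and IFIT3 had too few reads to be tested and IFIT5 fell, at 2.84, 4.22 and 2.83 CPM in EMD knockdown and 7.12, 7.37 and 8.61 CPM in control cells. The 22Rv1 values of IFIT5 did not overlap, at a log2 fold change of -1.24 ± 0.17 (SE, adjusted p = 2.50e-06). In C4-2B 0 of the 4 passed edgeR, with log2 fold changes between -0.55 and -0.13, 0 with an unadjusted p under 0.05, 0 past DESeq2 and 0 past limma with cyclic loess.

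MX2, a dynamin-like GTPase that restricts retroviruses at the nuclear pore, showed the largest rise among the members tested in 22Rv1. MX2 stood at 7.06, 7.10 and 8.06 CPM in the 22Rv1 EMD knockdown libraries, against 0.513, 0.750 and 0.536 CPM in the 22Rv1 controls. The lowest knockdown library was far above the highest control, a 12.7-fold rise with a log2 fold change of 3.67 ± 0.23 (SE, adjusted p = 1.73e-11). It had too few reads in C4-2B and did not pass in DU145 (-0.67, adjusted p = 0.18). Its neighbour and paralog MX1, which acts on influenza virus, fell in the same 22Rv1 cells, at 6.04, 6.24 and 5.94 CPM in EMD knockdown and 12.5, 11.4 and 12.2 CPM in control. For MX1 the 22Rv1 arms did not overlap (log2 fold change -0.99 ± 0.12 SE, adjusted p = 2.60e-07), and it fell in DU145 too (-0.61, adjusted p = 0.000244) but did not pass in C4-2B (-0.03).

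ISG15, a ubiquitin-like protein, is attached to other proteins by the ligase HERC5 in human cells and removed by USP18, which also dampens signalling from the type I receptor. ISG15 stood at 6.76, 7.08 and 7.03 CPM in the DU145 EMD knockdown libraries, against 14.2, 12.5 and 12.4 CPM in the DU145 controls. In DU145 all knockdown values of ISG15 were lower, at a log2 fold change of -0.90 ± 0.09 (SE, adjusted p = 1.20e-09). In 22Rv1 it rose slightly (0.13, adjusted p = 0.013), a call lost in 6 of 13 alternative settings, where the adjusted p reached 0.984, and it did not pass in C4-2B (-0.13). USP18 showed the opposite order, at 26.6, 29.1 and 26.2 CPM in the DU145 EMD knockdown libraries, against 14.5, 15.1 and 13.4 CPM in the DU145 controls. The DU145 arms of USP18 did not overlap, at a log2 fold change of 0.93 ± 0.07 (SE, adjusted p = 4.86e-12), whereas it fell in 22Rv1 (-0.55 ± 0.07 SE, adjusted p = 2.65e-07) and in C4-2B (-0.23, adjusted p = 0.0405), where the call was lost in 7 of 13 alternative settings. USP18 has a near-identical copy, USP41, with which the authors' counting could split reads. HERC6, a relative of the ligase, stood at 1.05, 0.979 and 1.35 CPM in the 22Rv1 EMD knockdown libraries, against 2.40, 2.81 and 2.11 CPM in the 22Rv1 controls. Its 22Rv1 arms were apart at a log2 fold change of -1.10 ± 0.28 (SE, adjusted p = 0.00185), and it fell in DU145 as well (-0.52, adjusted p = 1.70e-05). The 22Rv1 call of HERC6 was lost with cyclic loess scaling in limma (adjusted p = 0.0653).

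The IFITM proteins, which stop enveloped viruses from fusing with the cell, and BST2 (tetherin), which holds budding virus at the surface, held the 3 deepest falls among the tested members. IFITM3 stood at 0.137, 0.0701 and 0.112 CPM in the DU145 EMD knockdown libraries, against 3.48, 2.87 and 2.79 CPM in the DU145 controls. These DU145 values came from 5, 2 and 4 reads in the EMD knockdown libraries and 73, 120 and 94 reads in the controls. The arms were far apart, a 26.9-fold fall with a log2 fold change of -4.75 ± 0.33 (SE, adjusted p = 2.43e-12). It also fell in 22Rv1 (-0.47, adjusted p = 5.97e-05), at 15.0, 16.8 and 15.5 CPM in EMD knockdown and 22.7, 20.7 and 21.8 CPM in control cells. In C4-2B it fell as well (-0.25, adjusted p = 0.00099), at 72.3, 67.1 and 66.2 CPM in EMD knockdown and 85.5, 76.9 and 81.8 CPM in control cells, and in both lines the arms did not overlap. IFITM1 stood at 0.243, 0.184 and 0.0589 CPM in the 22Rv1 EMD knockdown libraries, against 4.35, 3.31 and 4.29 CPM in the 22Rv1 controls. This 22.8-fold fall in 22Rv1 had a log2 fold change of -4.51 ± 0.37 (SE, adjusted p = 1.07e-09) and no overlap. In C4-2B IFITM1 stood at 2.43, 2.85 and 4.19 CPM in EMD knockdown and 7.01, 7.76 and 8.77 CPM in control cells, without overlap, at a log2 fold change of -1.31 ± 0.21 (SE, adjusted p = 1.14e-05). DU145 cells had 0 reads of IFITM1 in knockdown and 5 in control cells. IFITM2 stood at 0.989, 1.40 and 0.896 CPM in the DU145 EMD knockdown libraries, against 4.48, 4.16 and 3.86 CPM in the DU145 controls. Its DU145 arms did not overlap, at a log2 fold change of -1.94 ± 0.19 (SE, adjusted p = 2.44e-09); it fell in C4-2B (-0.42, adjusted p = 0.000371) and did not pass in 22Rv1 (0.15, adjusted p = 0.314). The 3 genes are close copies, and GENCODE 29 gives IFITM1 and IFITM2 351 shared exon bases on the same strand, 32.5% of those of IFITM1, so reads may be split between them.

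BST2 stood at 1.42, 0.857 and 1.06 CPM in the 22Rv1 EMD knockdown libraries, against 16.8, 20.1 and 19.4 CPM in the 22Rv1 controls. The 22Rv1 knockdown libraries all lay far below the controls, a 16.2-fold fall with a log2 fold change of -4.02 ± 0.16 (SE, adjusted p = 2.21e-14). In C4-2B it stood at 149, 135 and 137 CPM in EMD knockdown and 148, 150 and 152 CPM in control cells, with overlapping arms, and did not pass (-0.10, adjusted p = 0.0831). DU145 held 1 read in knockdown and 1 in control cells over all libraries, so no change was detectable there.

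The guanylate-binding proteins, GTPases induced by interferon gamma that attack the vacuoles of microbes, passed with a fall in DU145, where GBP2 and GBP3 were tested and GBP1 had too few reads, and in C4-2B only GBP2 was tested. GBP2 stood at 0.934, 1.40 and 1.18 CPM in the DU145 EMD knockdown libraries, against 3.53, 3.75 and 3.89 CPM in the DU145 controls. The DU145 arms of GBP2 did not overlap, at a log2 fold change of -1.68 ± 0.19 (SE, adjusted p = 3.11e-08). GBP3 stood at 0.220, 0.350 and 0.280 CPM in the DU145 EMD knockdown libraries, against 1.05, 0.860 and 0.949 CPM in the DU145 controls, from 8, 10 and 10 reads in the EMD knockdown libraries and 22, 36 and 32 reads in the controls. No GBP3 value overlapped either, at a log2 fold change of -1.74 ± 0.39 (SE, adjusted p = 0.000471). In 22Rv1 none of the family had enough reads to be tested: GBP1 had 0 reads in knockdown and 32 in control cells, at least 8.50-fold lower against a floor of 3 reads over the 3 knockdown libraries. GBP2 and GBP3 had 1 read each in 22Rv1 knockdown cells and 38 and 36 in control cells. The fall of GBP2 in C4-2B (-1.28, adjusted p = 0.0381) was lost in 8 of 13 alternative settings.

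Other targets went separate ways. IFI6, a small membrane protein that blocks flavivirus replication, stood at 0.487, 1.22 and 0.647 CPM in the 22Rv1 EMD knockdown libraries, against 3.05, 3.06 and 3.00 CPM in the 22Rv1 controls. Its 22Rv1 arms were apart at a log2 fold change of -1.99 ± 0.31 (SE, adjusted p = 1.16e-05), and it fell in DU145 as well (-0.52, adjusted p = 0.000251). IFI44 had 4, 9 and 5 reads in the EMD knockdown libraries and 18, 31 and 38 reads in the controls in DU145, with no overlap and a log2 fold change of -2.30 ± 0.45 (SE, adjusted p = 0.000116). Its neighbour IFI44L rose in C4-2B, with 15, 15 and 14 reads in the EMD knockdown libraries and 0, 1 and 0 reads in the controls. That rise had a log2 fold change of 5.24 ± 0.93 (SE, adjusted p = 5.64e-05), whose size depends on the near absence of control reads, and IFI44L did not pass in DU145 (0.11, adjusted p = 0.804). IFI27, a mitochondrial and nuclear membrane protein, rose in DU145 and had 35, 39 and 44 reads in the EMD knockdown libraries and 9, 18 and 28 reads in the controls. No IFI27 knockdown value reached down to a control (log2 fold change 1.05 ± 0.34 SE, adjusted p = 0.0119), but without DU145 control 2 the adjusted p was 0.0607. ISG20, an exonuclease of RNA, passed in all 3 lines: it fell in DU145 (-0.70, adjusted p = 7.53e-06) and rose in 22Rv1 (0.26, adjusted p = 0.0378) and C4-2B (0.41, adjusted p = 0.0123), the 22Rv1 call being lost in 8 of 13 alternative settings. IFI35 fell in DU145 (-0.40, adjusted p = 0.00799) and did not pass in C4-2B or 22Rv1, and XAF1 did not pass in DU145 (0.28). SAMD9, which restricts poxviruses, fell at the edge of the threshold in DU145 (-0.62, adjusted p = 0.0495), with 1.04, 1.09 and 1.06 CPM in EMD knockdown and 1.81, 1.82 and 1.31 CPM in control cells, a call lost in 8 of 12 alternative settings. TRIM21, a receptor for antibodies inside the cell, came nearest to the threshold in 22Rv1 (-0.33, adjusted p = 0.108), and TRIM22 did not pass in C4-2B (adjusted p = 0.995).

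Of 28 further interferon targets outside the members, 11 of 24 tested fell and 2 rose in DU145, 6 of 16 fell and 4 rose in 22Rv1, and 4 of 20 fell and 6 rose in C4-2B. Their medians on the log2 scale were -0.33, -0.10 and -0.04 in those lines. CD274, the gene of the T cell inhibitor PD-L1, stood at 2.94, 2.84 and 2.07 CPM in the DU145 EMD knockdown libraries, against 25.2, 27.3 and 27.1 CPM in the DU145 controls. CD274 values did not overlap in DU145, at a log2 fold change of -3.35 ± 0.10 (SE, adjusted p = 2.31e-20). UBE2L6, the conjugating enzyme for ISG15, stood at 1.62, 1.71 and 1.77 CPM in the 22Rv1 EMD knockdown libraries, against 10.7, 10.1 and 11.4 CPM in the 22Rv1 controls. For UBE2L6 the 22Rv1 arms were apart, at a log2 fold change of -2.66 ± 0.16 (SE, adjusted p = 8.22e-12). APOL6, an apolipoprotein relative, fell in DU145, at 1.92, 1.68 and 1.99 CPM in EMD knockdown and 8.15, 6.91 and 7.54 CPM in control cells (adjusted p = 6.62e-13). Further falls were those of EPSTI1 and LGALS3BP in 22Rv1 (-3.09, adjusted p = 0.000276, and -2.38, adjusted p = 9.47e-07) and the chemokine CXCL10 in C4-2B (-3.12, adjusted p = 0.000133). In C4-2B IFI30, a lysosomal thiol reductase, rose (2.50, adjusted p = 0.000459) and NMI fell (-0.94, adjusted p = 0.0234).

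Among 6 brakes of the response, SOCS3, which blocks JAK kinases, stood at 0.811, 1.16 and 1.06 CPM in the 22Rv1 EMD knockdown libraries, against 14.1, 14.9 and 13.4 CPM in the 22Rv1 controls. It was lower in every 22Rv1 knockdown library, at a log2 fold change of -3.83 ± 0.17 (SE, adjusted p = 7.91e-14), and did not pass in DU145 (0.03, adjusted p = 0.819). PTPN2, a phosphatase of JAK1, stood at 28.2, 27.9 and 28.4 CPM in the 22Rv1 EMD knockdown libraries, against 13.8, 11.1 and 11.9 CPM in the 22Rv1 controls. PTPN2 lay above the controls in all 22Rv1 knockdown libraries, at a log2 fold change of 1.19 ± 0.09 (SE, adjusted p = 3.20e-10). In all, 4 of 6 fell and 2 rose in 22Rv1, 2 fell and 1 rose in DU145, and 1 of 4 tested fell and 1 rose in C4-2B. SOCS1, a relative of SOCS3, fell in 22Rv1 (-1.04, adjusted p = 0.00333). In DU145 PIAS1 (-0.15, adjusted p = 0.0331), PTPN2 (-0.20, adjusted p = 0.00355) and PTPN6 (0.21, adjusted p = 0.0211) passed, and in C4-2B PIAS1 fell (-0.71, adjusted p = 2.45e-10) and PTPN6 rose (0.27, adjusted p = 0.00214). PIAS1 fell in 22Rv1 as well (-0.55, adjusted p = 3.71e-08), and PTPN6 rose there (0.51, adjusted p = 1.62e-07).

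All 6 antigen presentation members tested in 22Rv1 fell, at a median log2 fold change of -1.09, in a line where 34.3% of all genes fell and 67.8% passed in either direction. The fall of 1 of them, PSMB8, was lost in 5 of 13 alternative settings. In DU145, 3 fell and 2 rose, and in C4-2B, 1 fell and 2 rose. B2M, the light chain that every MHC class I molecule needs, fell in each line. B2M stood at 215, 198 and 201 CPM in the C4-2B EMD knockdown libraries, against 326, 313 and 307 CPM in the C4-2B controls. In 22Rv1 it had 150, 148 and 147 CPM in EMD knockdown and 193, 207 and 214 CPM in control cells. In DU145 it had 229, 235 and 219 CPM in EMD knockdown and 367, 364 and 350.2 CPM in control cells. The arms did not overlap in any line, and the log2 fold changes were -0.62 ± 0.04 (SE, adjusted p = 3.81e-12) in C4-2B, -0.47 ± 0.04 (SE, adjusted p = 4.30e-09) in 22Rv1 and -0.66 ± 0.05 (SE, adjusted p = 4.02e-12) in DU145. HLA-B, a heavy chain that presents the peptides, stood at 12.2, 10.0 and 9.71 CPM in the 22Rv1 EMD knockdown libraries, against 56.5, 60.2 and 59.3 CPM in the 22Rv1 controls. All 22Rv1 knockdown values of HLA-B were lower, a 5.44-fold fall with a log2 fold change of -2.44 ± 0.08 (SE, adjusted p = 7.98e-16). In C4-2B it rose (0.39 ± 0.10 SE, adjusted p = 0.00209), with 43.9, 33.3 and 33.7 CPM in EMD knockdown and 29.6, 28.2 and 26.6 CPM in control cells, and in DU145 the arms overlapped and it did not pass (-0.10, adjusted p = 0.15). HLA-C stood at 82.3, 85.3 and 85.7 CPM in the 22Rv1 EMD knockdown libraries, against 189.7, 207 and 194 CPM in the 22Rv1 controls. The 22Rv1 fall of HLA-C, without overlap, had a log2 fold change of -1.22 ± 0.04 (SE, adjusted p = 2.97e-15); it fell slightly in DU145 (-0.16, adjusted p = 0.00789) and rose in C4-2B (0.22, adjusted p = 0.000557). HLA heavy chains are alike and vary between people, so counting against a reference genome can misplace their reads.

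PSMB9 and PSMB8, catalytic subunits of the immunoproteasome, cut the peptides, and TAP1 carries them into the endoplasmic reticulum. PSMB9 stood at 1.50, 1.29 and 2.12 CPM in the 22Rv1 EMD knockdown libraries, against 5.13, 4.31 and 5.61 CPM in the 22Rv1 controls. In DU145 it had 6.76, 6.45 and 5.43 CPM in EMD knockdown and 2.38, 2.03 and 1.78 CPM in control cells. Neither line's arms overlapped: knockdown lay lower in 22Rv1, at a log2 fold change of -1.63 ± 0.22 (SE, adjusted p = 1.45e-06), and higher in DU145, at 1.61 ± 0.14 (SE, adjusted p = 3.35e-10). TAP1 stood at 43.2, 41.6 and 46.1 CPM in the 22Rv1 EMD knockdown libraries, against 69.0, 78.4 and 72.9 CPM in the 22Rv1 controls. Its DU145 values were 62.0, 64.9 and 57.0 CPM in EMD knockdown and 36.4, 41.8 and 38.7 CPM in control cells. TAP1 followed the same order, lower in 22Rv1 at -0.75 ± 0.06 (SE, adjusted p = 7.61e-10) and higher in DU145 at 0.65 ± 0.06 (SE, adjusted p = 8.85e-10). PSMB9 and TAP1 lie head to head on opposite strands of chromosome 6, with RefSeq start sites 488 bases apart. In C4-2B neither passed (-0.56 and -0.06). PSMB8 fell in 22Rv1 (-0.95, adjusted p = 0.0264) and slightly in DU145 (-0.23, adjusted p = 0.0243), the DU145 call being lost in 7 of 13 alternative settings.

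PARP9 and DTX3L, partners in a complex of ADP-ribosylation and ubiquitin that enhances interferon signalling, are another pair on opposite strands, on chromosome 3, with start sites 446 bases apart. DTX3L stood at 103, 104 and 104 CPM in the 22Rv1 EMD knockdown libraries, against 70.3, 64.5 and 71.6 CPM in the 22Rv1 controls. DU145 showed 9.64, 8.73 and 10.2 CPM in EMD knockdown and 16.4, 16.8 and 16.5 CPM in control cells. It rose in 22Rv1 (0.59 ± 0.05 SE, adjusted p = 1.24e-09) and fell in DU145 (-0.80 ± 0.08 SE, adjusted p = 1.44e-09), without overlap in either line. PARP9 did the same, at a log2 fold change of 0.26 ± 0.05 (SE, adjusted p = 0.000152) in 22Rv1 and -0.40 ± 0.10 (SE, adjusted p = 0.00175) in DU145, and neither gene passed in C4-2B (0.06 and -0.05). This order is the reverse of that of PSMB9 and TAP1 in the same libraries. GENCODE 29 gives PARP9 and DTX3L 217 exon bases in common on opposite strands, 3.7% of those of DTX3L. PARP14, a relative that lies near them, fell in DU145 (-0.58, adjusted p = 6.09e-08), rose in C4-2B (0.31, adjusted p = 0.00627) and did not pass in 22Rv1 (0.07).

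**Figure D5:**
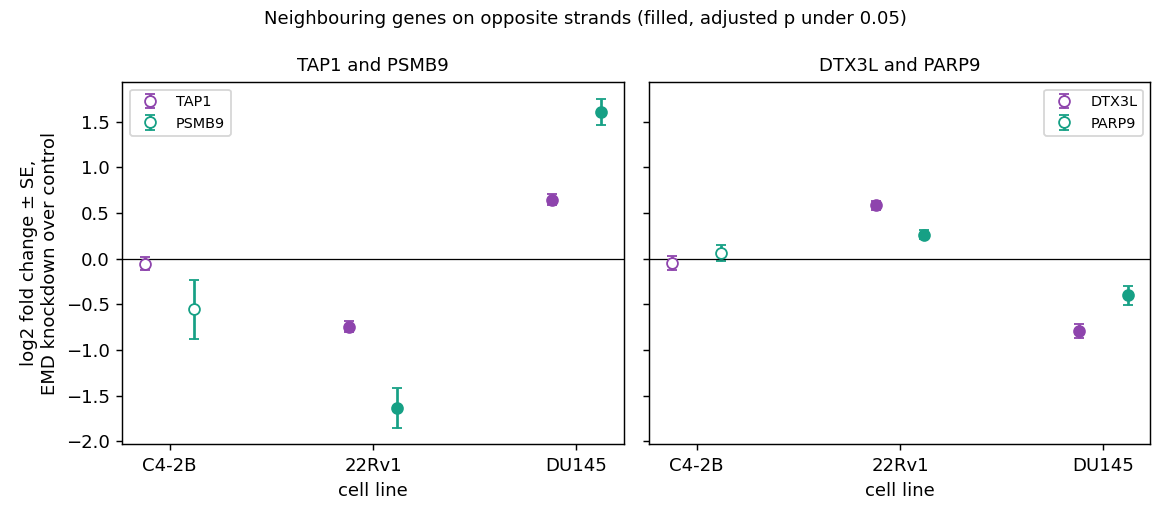
Log2 fold change ± SE of EMD knockdown over control (vertical axis) in 3 cell lines (horizontal axis) for 2 pairs of neighbouring genes, filled where the adjusted p was under 0.05. TAP1 and PSMB9 lie at -0.75 and -1.63 in 22Rv1 and at 0.65 and 1.61 in DU145, while DTX3L and PARP9 lie at 0.59 and 0.26 in 22Rv1 and at -0.80 and -0.40 in DU145.

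Among 16 further genes of the MHC class I pathway, 4 of 14 tested fell and 6 rose in 22Rv1, 9 of 15 fell and 1 rose in DU145, and 2 of 15 fell and 4 rose in C4-2B. Their medians on the log2 scale were 0.07, -0.36 and 0.05 in those lines. In 22Rv1 the non-classical heavy chain HLA-F fell (-4.19, adjusted p = 3.86e-11), as did HLA-E (-1.04, adjusted p = 1.30e-13). NLRC5, the transactivator of MHC class I genes, stood at 0.405, 0.367 and 0.883 CPM in the 22Rv1 EMD knockdown libraries, against 2.81, 1.81 and 2.30 CPM in the 22Rv1 controls. NLRC5 in DU145 was at 1.70, 1.61 and 1.34 CPM in EMD knockdown and 5.39, 5.83 and 4.60 CPM in control cells. NLRC5 was lower in all knockdown libraries of both lines, at log2 fold changes of -2.10 ± 0.36 (SE, adjusted p = 3.52e-05) and -1.76 ± 0.16 (SE, adjusted p = 4.07e-10), and did not pass in C4-2B (0.45, adjusted p = 0.261). TAPBP (tapasin), which loads peptides beside TAP1, stood at 184, 191 and 187 CPM in the 22Rv1 EMD knockdown libraries, against 78.7, 84.0 and 75.4 CPM in the 22Rv1 controls. TAPBP in DU145 was at 93.6, 99.8 and 102 CPM in EMD knockdown and 222, 265 and 250 CPM in control cells. TAPBP moved against TAP1 in both lines, rising in 22Rv1 (1.24 ± 0.04 SE, adjusted p = 3.11e-15) and falling in DU145 (-1.32 ± 0.06 SE, adjusted p = 3.88e-14). The peptide trimmer ERAP2 fell in DU145 (-1.51, adjusted p = 5.16e-15), and in C4-2B TAPBPL, a relative of tapasin, rose (0.84, adjusted p = 0.014) while the proteasome activators PSME1 and PSME2 fell (-0.32, adjusted p = 3.76e-05, and -0.53, adjusted p = 4.33e-06).

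The constitutive proteasome subunits that the immunoproteasome subunits replace moved in their own order. PSMB5, PSMB6 and PSMB7 fell in C4-2B by 0.38, 0.23 and 0.43 on the log2 scale (adjusted p = 1.56e-06, 0.00249 and 6.34e-08). They rose in 22Rv1, at log2 fold changes of 0.30, 0.19 and 0.43 (adjusted p = 2.91e-06, 0.000471 and 4.64e-08). In DU145, PSMB6 and PSMB7 rose (0.31 and 0.24, adjusted p = 3.26e-06 and 0.000218) and PSMB5 did not pass (0.12, adjusted p = 0.0582).

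Whether the knockdown effect differed between lines was tested over all 18 libraries on the genes of all 3 tables, with 42 members tested. The effect in C4-2B less that in 22Rv1 passed for 28 members, higher in C4-2B for 23 and lower for 5, where 56.1% of all 17152 genes passed. For C4-2B less DU145 it passed for 22, higher in C4-2B for 18 and lower for 4, against 45.7% of all genes. For 22Rv1 less DU145 it passed for 26, higher in 22Rv1 for 10 and lower for 16, against 55.6%. The members' shares were thus 66.7%, 52.4% and 61.9%. Some of these members had too few reads to be tested in 1 or both lines of a pair, namely MX2, IFI27, IFI44, IFI44L, GBP1, GBP2 and GBP3 for C4-2B less 22Rv1 and IFI27, IFI44, GBP1 and GBP2 for 22Rv1 less DU145. Among members tested in both lines of a pair, the difference passed for 21 of 31 (67.7%) for C4-2B less 22Rv1, higher in C4-2B for 18 and lower for 3, where 64.1% of all genes tested in both lines passed. It passed for 22 of 36 (61.1%) for C4-2B less DU145, against 53.6%, and for 22 of 30 (73.3%) for 22Rv1 less DU145, higher in 22Rv1 for 9 and lower for 13, against 63.6%. The members' shares lay near those of all genes, and nothing is read from them about the members. Opposite calls with a passed difference stood in 3 of the 31, 5 of the 36 and 8 of the 30 members, and in 19.4%, 14.7% and 20.2% of all genes tested in both lines of the 3 pairs in that order.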

How the data were processed

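Gene-level reads of 18 RNA-seq libraries (total RNA, 3 libraries in each of 6 groups) were analysed. The authors deposited expected counts per gene, as whole numbers; the submitters' processing notes name STAR, RSEM 1.3.1 and GRCh38. Annotation release, library strandedness and the step that rounded the counts are not given in the sources used here, so overlapping and antisense genes cannot be told apart. In the DU145 table, 92 spike-in entries (1 to 6 reads a library) and 30 second copies of pseudoautosomal genes were left out.

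Each line was fitted by itself in edgeR 4.0.16 (R 4.3.3): filterByExpr with a minimum count of 10 and a minimum total of 15, TMM factors, robust quasi-likelihood F test, Benjamini-Hochberg adjustment over all genes tested, threshold 0.05. Adjusted p-values without a tool's name come from that test. Levels are TMM-scaled counts per 1000000 (CPM), given for libraries 1, 2 and 3 in that order. The SE is the log2 fold change divided by the root of the F statistic. Differences between lines were contrasts of one edgeR fit of all 18 libraries on the 18445 genes shared by the tables. Alternatives were RLE factors, library totals, DESeq2 1.42.0, no filter, voom with cyclic loess (limma 3.58.1), a replicate block, a joint fit and leaving out each library. The tests were checked on simulated counts with few changed genes and no shift with level. That check does not cover data in which a large share of genes is called, as here. Replicates differed by more than counting noise (chi-square per degree of freedom at least 2.28 in every pair). The reads carry no molecular identifiers, so the floor of 3 reads covers counting error only.

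Members, gene lists and the rule for naming genes were chosen with earlier results of these data known, and no list was tested as a set. Members were described in full if called in at least 1 line at 2-fold or in all 3 lines, or, in a role with none, with the smallest p; of other lists, the up to 3 called genes per line with the largest change and non-overlapping arms were named, plus CGAS, STING1 and NLRC5; results for some genes are not reported here. ISG20 and TRIM21 met the rule for a full description but are given by log2 fold change and adjusted p alone. MX1, ISG15 and TAP1 did not meet it but are given with their library values. IFNAR2, HLA-E, TAPBP, PIAS1 and PTPN6 in 22Rv1 were added after their values were seen. The same holds for TRIM25 in 22Rv1 and DU145, and for SAMHD1 and IKBKE in DU145. Positions and overlaps come from GENCODE 29 (GRCh38), promoters from RefSeq (GRCh38.p14), which matched 37 members.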

Additional observations from a re-analysis of the deposited data

Results flagged for a closer look

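In 16 comparisons between lines a member rose in 1 line and fell in another, and the difference of the log2 fold changes itself passed edgeR's quasi-likelihood test over 18 libraries (adjusted over 17152 genes). They make up 9.68% of the members tested in both C4-2B and 22Rv1, 13.9% for C4-2B and DU145 and 26.7% for 22Rv1 and DU145, where 19.4%, 14.7% and 20.2% of all genes tested in both lines were so. The calls of ISG15 and ISG20 in 22Rv1 were lost in 6 and 8 of 13 alternative settings, and those of IRF9 and USP18 in C4-2B in 6 and 7. Each difference below is the effect in the first-named line less that in the other.

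Between 22Rv1 and DU145, the knockdown effect on PSMB9 and TAP1 was lower in 22Rv1. The differences were -3.30 ± 0.29 (SE, adjusted p = 1.38e-11) for PSMB9 and -1.45 ± 0.09 (SE, adjusted p = 2.31e-15) for TAP1. USP18 and IFIT5 lay the same way, at -1.54 ± 0.10 (SE, adjusted p = 1.02e-14) and -1.76 ± 0.20 (SE, adjusted p = 5.46e-09). DTX3L and PARP9 lay the other way, at 1.32 ± 0.10 (SE, adjusted p = 1.87e-13) and 0.60 ± 0.11 (SE, adjusted p = 1.94e-05), as did ISG15 at 0.96 ± 0.09 (SE, adjusted p = 1.47e-10) and ISG20 at 0.90 ± 0.17 (SE, adjusted p = 3.48e-05).

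Between C4-2B and 22Rv1, the knockdown effect on the heavy chains HLA-B and HLA-C was higher in C4-2B. The differences were 2.88 ± 0.13 (SE, adjusted p = 1.82e-16) for HLA-B and 1.49 ± 0.06 (SE, adjusted p = 3.77e-20) for HLA-C. For IRF9 the difference was 1.45 ± 0.35 (SE, adjusted p = 0.000895). Between C4-2B and DU145, the difference was 1.10 ± 0.17 (SE, adjusted p = 2.39e-06) for ISG20, 0.87 ± 0.10 (SE, adjusted p = 1.41e-08) for PARP14, 0.86 ± 0.17 (SE, adjusted p = 7.69e-05) for IRF1 and 0.36 ± 0.06 (SE, adjusted p = 5.32e-06) for HLA-C, and -1.17 ± 0.11 (SE, adjusted p = 2.97e-11) for USP18. Line, table and batch label coincide, so a difference between lines cannot be told apart from one between batches, and for DU145 the medium and possibly the reagent differ too. With 3 libraries a group, no search for single far libraries was made.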

How the results depend on the processing

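Counts of members called moved by more than 1.5 times in 2 lines. In 22Rv1, 5 members rose, but 3 did so with library totals in place of TMM factors and 3 in a fit of all 18 libraries on the genes of all 3 tables. Leaving out 1 library gave 3 to 5 risers there (3 without EMD knockdown 3 and 3 without control 1) and 18 to 20 that fell. In C4-2B it gave 5 to 8 risers (5 without EMD knockdown 1) and 5 to 7 that fell, and in DU145 4 to 6 and 22 to 26. With 1 library left out, the genes called numbered 5620 to 6258 (C4-2B), 10661 to 11016 (22Rv1) and 8213 to 9525 (DU145), and the members differing between lines from 25 to 28 for C4-2B less 22Rv1, 20 to 23 for C4-2B less DU145 and 21 to 27 for 22Rv1 less DU145. No call of a member turned direction under any alternative run, and 72 values of members lost their call. The causes were not tested. Least stable were IFIH1, GBP2, USP18 and IRF9 in C4-2B, ISG20, ISG15 and PSMB8 in 22Rv1 and SAMD9 and PSMB8 in DU145, each lost in 5 to 9 settings. Cyclic loess scaling, which removes a shift with level, gave 6 risers and 15 that fell in 22Rv1. Of all genes in that line, 5622 rose and 5634 fell under it. Library totals moved the split of all genes in C4-2B to 3871 higher and 2922 lower, against 3068 and 3516 with TMM, and in 22Rv1 to 4709 and 6492, against 5583 and 5705, and in DU145 to 5555 and 4176, against 4664 and 4568. Deviations of same-numbered libraries of the 2 arms from their arm's mean correlated at -0.12 to 0.09. With 3 libraries an arm, these values cannot settle whether the numbers pair the libraries. With the number as a replicate block, 6623, 11146 and 9860 genes were called in C4-2B, 22Rv1 and DU145, against 6584, 11288 and 9232 without it. Under the block, 8, 5 and 5 members rose and 6, 18 and 26 fell in those lines. Depth limits members near 0 reads, such as BST2 and IFITM1 in DU145 and the GBP family in 22Rv1.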

Other observations

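MHC class II genes, which epithelial cells express mainly under interferon gamma, were not among the members. In DU145, CD74, the invariant chain that guards the class II groove, stood at 0.247, 0.421 and 0.224 CPM in the DU145 EMD knockdown libraries, against 6.96, 7.41 and 8.54 CPM in the DU145 controls. The CD74 arms did not overlap, at a log2 fold change of -4.71 ± 0.20 (SE, adjusted p = 5.42e-17). HLA-DRB1 stood at 0.742, 0.386 and 0.700 CPM in the DU145 EMD knockdown libraries, against 3.43, 4.40 and 4.66 CPM in the DU145 controls, again without overlap, at -2.75 ± 0.22 (SE, adjusted p = 4.95e-11). HLA-DPA1, at 0.412, 0.386 and 0.364 CPM in EMD knockdown and 0.191, 0.120 and 0.119 CPM in control, rose in the same cells (1.48, adjusted p = 0.0245), so that 2 of 5 tested class II genes fell and 1 rose in DU145. In 22Rv1 HLA-DMA fell (-1.75, adjusted p = 0.00818) and in C4-2B 0 of 3 tested passed edgeR, with 1 at an unadjusted p under 0.05, 0 past DESeq2 and 0 past limma with cyclic loess.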
